A study of Homo sapiens with 11 samples.

Results

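The mitochondrial ribosomal protein genes were taken as every protein-coding gene of the deposited count table whose symbol begins with MRPL or MRPS followed by a number. There were 78 of them among the 61464 genes listed. They were measured in HCT116, an epithelial cell line long established from a human colorectal carcinoma and described by the submitters as carrying a ras mutation. The cells received DMSO, the solvent control (3 libraries), or GTEA1 or GTEA7, code names of triterpenoid extracts of the bracket fungus Ganoderma (4 libraries each), for 48 h. All groups share the line and its ras mutation, no dose was stated, and every library was labelled as batch 1.

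Mitochondria keep a ribosome of their own, which translates the few messenger RNAs of the mitochondrial genome into core subunits of the respiratory chain and ATP synthase. Its RNAs come from mitochondrial DNA, whereas its proteins are encoded in the nucleus, made in the cytosol and imported. MRPL genes mostly encode proteins of the large subunit, which joins amino acids, and MRPS genes those of the small subunit, which reads the messenger RNA. Some have a bacterial counterpart and others were added to the ribosome in the mitochondrial lineage. By the standard assignment, 51 of the 78 belong to the large subunit and 26 to the small subunit. The 51 include MRPS30 and MRPS18A, which were named as small subunit proteins before structures placed them in the large one. MRPS36, now known as a component of the 2-oxoglutarate dehydrogenase complex, was assigned to neither.

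Libraries held 13742326 to 19304211 counts, and 17963 genes had enough counts to be tested. Levels are given as CPM, read counts divided by a library size scaled with TMM factors and put on the usual common scale. A value after ± is an SD beside CPM (n = 3 for DMSO, n = 4 for each extract) and a standard error beside log2 fold changes. A gene passed at an adjusted p under 0.05 in edgeR's quasi-likelihood test with Benjamini-Hochberg adjustment over all 17963 genes. The labels do not say that the replicates were separate cultures, so p-values measure only the spread between these samples. The epithelial marker EPCAM was at 230 to 240 CPM in DMSO, 347 to 376 in GTEA1 and 264 to 285 in GTEA7, while VIL1 did not exceed 0.288 CPM in any library. Of the 7 epithelial markers tested, EPCAM, KRT19, CDH1 and CLDN7 rose with GTEA1 and KRT8, KRT18 and CDX2 fell. Markers of blood, vessel, stromal, liver and nerve cells (15 genes) summed to 57.8 to 60.9 CPM in DMSO, 41.1 to 49.4 in GTEA1 and 40.6 to 50.8 in GTEA7. CD3E among them was at 0 throughout, and without COL1A1 the sums were 6.7 to 8.42, 3.14 to 7.07 and 5.23 to 7.02 CPM, whose part in the results below was not tested. In bulk samples such as these, a change in the RNA per cell and a change in the mix of cells cannot be told apart.

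Of the 78 genes, 76 were tested. MRPL53 had 0 counts in all 11 libraries and MRPS24 had 40 in all, too few for a test. Mean levels in DMSO ran from 0 to 143 CPM with a median of 25.9. Per kilobase of transcript the median in DMSO was 17.8 CPM, with quartiles at 9.5 and 26.7. The length used was that of the longest protein-coding transcript in GENCODE v29, which need not be the form expressed. The order depends on it: MRPL42, highest in CPM, was given 15582 bases and ranked 60 of 78 per kilobase. MRPL3, whose product lies near the peptidyl transferase centre, led with 65.9 ± 2 CPM per kilobase, followed by MRPL18 (54.8 ± 3.3) and MRPS30 (53.9 ± 1.5), neighbours in the order that differed by less than their spread.

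The low end of this order was made up of genes that share their place in the genome with another gene. The 10 genes with the fewest counts had 0 to 951 over all libraries, the next having 1624. Each had 74% or more of its gene body covered when all other gene models of GENCODE v29 are counted. They were MRPL53, MRPS24, MRPL2, MRPL12, MRPS28, MRPL46, MRPL38, MRPS18C, MRPS17 and MRPS12. Among the other 68 genes, 12 had at least 50% of the gene body covered in this way. MRPL12, the homologue of the bacterial stalk protein that recruits translation factors, had 290 counts, and a protein-coding gene model that overlaps it on its strand had 0. Genes at such low counts are therefore reported as uncertain: the rule by which the authors treated reads in shared regions is not given in the sources used here. Pseudogenes named after the 78 took few reads, 1188 counts in 79 rows, or 0.25% of the counts of the genes themselves.

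**Figure D1:**
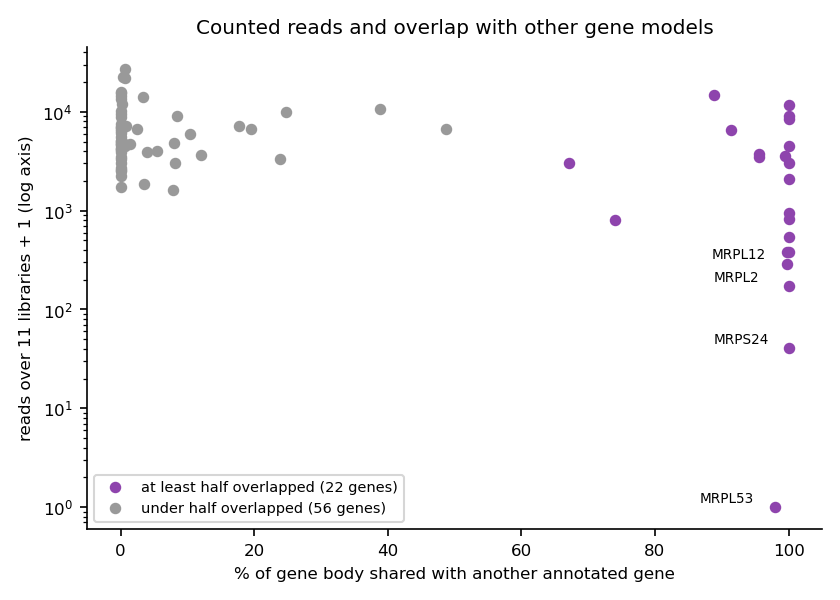
Each point is 1 of the 78 MRPL and MRPS genes. The x axis is the share of its gene body (percent) that all other GENCODE v29 gene models together cover. The y axis is its reads over 11 libraries plus 1 (log scale). The 10 genes with the fewest reads, from 0 to 951, all lie at 74% or more, and all genes under 50% had at least 1624 reads.

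GTEA1 changed most of the mitochondrial ribosomal protein genes, in both directions and by small amounts. MRPS10 more than doubled and MRPL55, MRPL52 and MRPS5 rose, while MRPS25, MRPL35, MRPL23 and MRPL1 fell to 0.521, 0.549, 0.56 and 0.577 of the DMSO level. In all, 24 of the 76 tested rose (31.6%, against 35.6% of all genes tested), 26 fell (34.2%, against 36.2%) and 26 did not pass. Their shares of calls were therefore near those of the whole transcriptome, of which 71.8% passed. When libraries were scaled by their size only, 11 members were higher and 38 lower, with 26.9% of all genes higher and 45.5% lower. That scaling moved the median of all genes to -0.167, from -0.008, and that of the members to -0.17, from -0.02.

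The members' log2 fold changes with GTEA1 had an SD of 0.38, against 0.95 over all genes, and ran from -0.94 (MRPS25) to 1.1 (MRPS10). A narrow spread was not particular to them. The SD was 0.42 for nuclear genes of the respiratory chain and 0.23 for cytosolic ribosomal protein genes. MRPS10 was the only member that changed by 2-fold or more, where 8.56% of all genes rose and 12.4% fell that far. In 24 members every GTEA1 library lay above every DMSO library, and in 24 every one lay below (33.9% and 34.8% of all genes). Both subunits were divided: of 50 tested genes of the large subunit 17 rose and 17 fell, and of 25 of the small subunit 6 rose and 9 fell. Of all genes tested, 35.6% rose and 36.2% fell. Among genes with a bacterial counterpart 15 of 44 rose and 16 fell, and among those specific to mitochondria 7 of 30 rose and 10 fell. MRPL55 and MRPS36, which both rose, were assigned to neither class and are left out of these and later counts by origin.

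**Figure D2:**
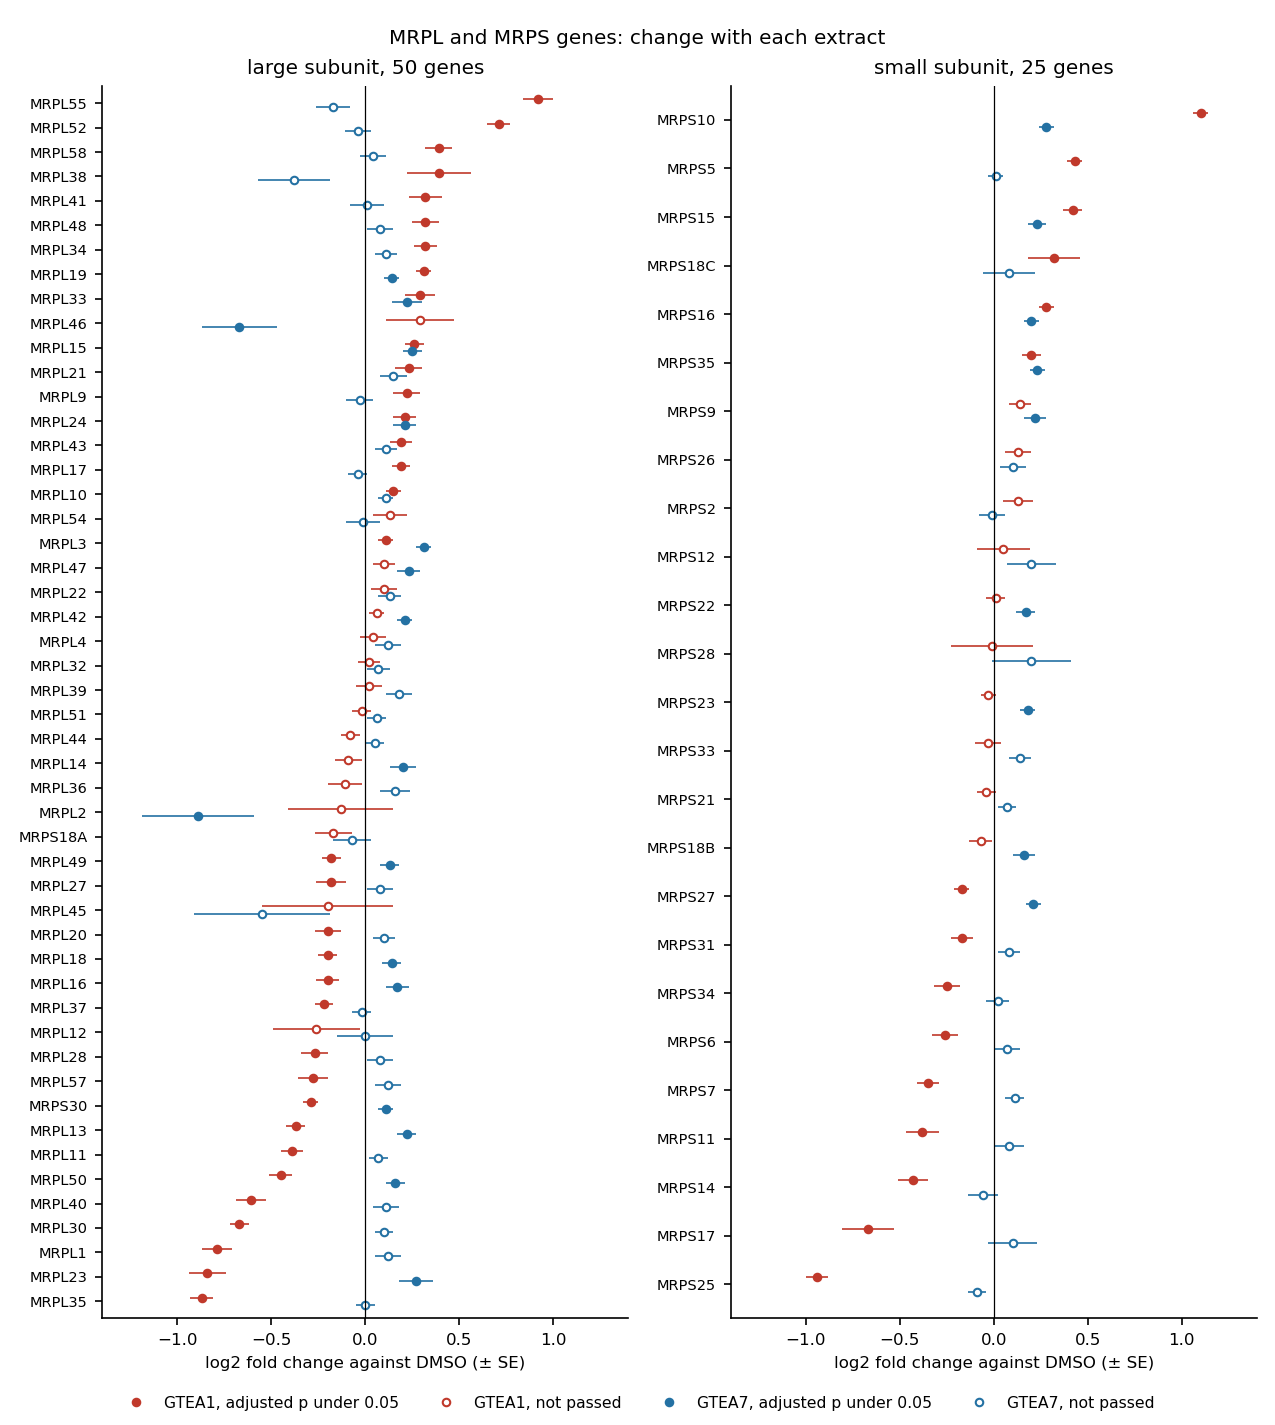
Log2 fold change against DMSO (x axis, ± SE) of each tested gene of the large subunit (left, 50 genes) and small subunit (right, 25 genes), ordered by the change with GTEA1; filled points passed at an adjusted p under 0.05 and MRPS36, assigned to neither, is not drawn. GTEA1 spreads the genes from -0.94 to 1.1, whereas with GTEA7 most lie a little above 0.

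Among genes of the small subunit, MRPS10, the counterpart of bacterial S10 in the head of that subunit, rose most. MRPS10 was at 64, 60 and 61.8 CPM in DMSO, at 132, 131, 129 and 139 in GTEA1 and at 74.1, 72.8, 74.2 and 79.2 in GTEA7. The 3 groups did not overlap, with GTEA1 highest and DMSO lowest. Its log2 fold change with GTEA1 was 1.1 ± 0.04 (adjusted p = 1.6e-28). MRPS5, the counterpart of bacterial S5, was at 71.2, 72.9 and 71.7 CPM in DMSO and at 93, 98.5, 93.9 and 103 in GTEA1, a log2 fold change of 0.43 ± 0.04 (adjusted p = 5.4e-13). In GTEA7 it lay at 69.9 to 74.5 CPM, which spans the DMSO values. MRPS15, the counterpart of bacterial S15, rose from 35.9 ± 1.7 to 47.9 ± 1.9 CPM with GTEA1 (log2 fold change 0.42 ± 0.05, adjusted p = 3e-09), and MRPS16 from 59.1 ± 1.2 to 71.9 ± 0.88 (0.28 ± 0.04, adjusted p = 2e-07).

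In the other direction, MRPS25, a protein of the small subunit specific to mitochondria, fell most. MRPS25 was at 45.9, 44.6 and 48.3 CPM in DMSO and at 23.1, 22.6, 24.9 and 25.4 in GTEA1, a log2 fold change of -0.94 ± 0.06 (adjusted p = 1.2e-20). Its GTEA7 libraries, at 42.1 to 44.7 CPM, overlapped those of DMSO. All other gene models together, among them NR2C2 on the opposite strand, cover 48.7% of the body of MRPS25. MRPS17 had few counts and fell from 5.08 ± 0.45 to 3.2 ± 0.47 CPM (adjusted p = 5.2e-05). MRPS14 fell from 19 ± 1.1 to 14 ± 1.7 CPM (adjusted p = 5.7e-06) and MRPS7, a primary binder of small subunit RNA in bacteria, from 41.8 ± 1.8 to 32.9 ± 2.1 (adjusted p = 2.6e-07).

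To show what lies upstream of genes that moved in opposite ways, the 250 bases before the annotated start are printed for MRPS10 and MRPL55, the largest rises with GTEA1, MRPS25, its largest fall, and MRPL3, the largest rise with GTEA7. Sequences are from RefSeq, build GRCh38.p14, 5′ to 3′ on the gene's strand, and capitals mark matches on either strand to the motifs listed further on.
MRPS10 (chr6:42217862-42218111, minus strand): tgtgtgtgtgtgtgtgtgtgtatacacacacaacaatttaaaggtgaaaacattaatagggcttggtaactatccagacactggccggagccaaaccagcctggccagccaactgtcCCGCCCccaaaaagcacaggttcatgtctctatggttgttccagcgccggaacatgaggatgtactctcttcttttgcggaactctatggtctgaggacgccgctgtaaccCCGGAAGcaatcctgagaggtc
MRPL55 (chr1:228109300-228109549, minus strand): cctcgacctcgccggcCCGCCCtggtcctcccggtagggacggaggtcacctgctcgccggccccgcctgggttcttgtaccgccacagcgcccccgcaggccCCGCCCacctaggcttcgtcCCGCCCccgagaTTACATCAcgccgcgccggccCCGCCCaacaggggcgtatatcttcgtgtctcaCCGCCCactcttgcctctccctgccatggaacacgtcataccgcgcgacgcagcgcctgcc
MRPS25 (chr3:15065316-15065565, minus strand): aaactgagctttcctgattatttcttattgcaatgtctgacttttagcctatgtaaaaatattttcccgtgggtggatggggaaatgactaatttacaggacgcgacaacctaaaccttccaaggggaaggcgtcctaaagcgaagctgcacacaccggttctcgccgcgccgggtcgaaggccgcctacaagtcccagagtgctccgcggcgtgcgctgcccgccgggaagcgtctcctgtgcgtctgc
MRPL3 (chr3:131502972-131503221, minus strand): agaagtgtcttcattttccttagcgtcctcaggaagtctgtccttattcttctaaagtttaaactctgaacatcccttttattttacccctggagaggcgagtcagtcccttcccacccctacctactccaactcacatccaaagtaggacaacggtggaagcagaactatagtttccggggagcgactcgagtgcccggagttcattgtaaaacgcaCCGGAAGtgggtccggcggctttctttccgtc
The window of MRPS10 held the ETS/GABP motif starting 22 bases before the start and the SP1 motif at 133 bases. The window of MRPL55 held 5 SP1 motifs and the ATF4-type motif at 115 bases before the start, and it was the 1 window among the members with that motif. The window of MRPL3 held the ETS/GABP motif at 32 bases, and none of the motifs searched was found in that of MRPS25.

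Over the 69 members with a promoter entry, the ETS/GABP motif (CCGGAAG) was found in 23, or 33.3%, where 8.82% of all 27305 promoters and 11.8% of those of protein-coding genes held it. The factors that bind it include GABP, also called NRF2 in the older mitochondrial literature, a regulator of nuclear genes for mitochondria. The NRF1 motif (GCGC, any base, then TGCGC) was found in 8 (11.6%, against 5.53% of all promoters and 7.65% of protein-coding ones) and the YY1 motif (AAGATGGCG) in 3 (4.35%, against 0.641% and 0.751%). The share for SP1 (GGGCGG), 55.1%, was near that of protein-coding promoters (56%), with all promoters at 42.3%. The shares were 27.5% for NF-Y (CCAAT; 33% of all and 34.5% of protein-coding promoters), 8.7% for the E-box (CACGTG; 6.49% and 7.84%) and 1.45% for the ATF4 type (TGATGNAA; 3.19% and 2.21%). Both strands were searched, and no matches of different motifs shared bases in the members' windows. The ETS/GABP motif was present in 8 of 20 members that rose with GTEA1, in 6 of 23 that fell and in 8 of 24 that did not pass. With GTEA7 it was present in 6 of 21 that rose and in 16 of 45 that did not pass. A match is a description of the letters and does not show binding.

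In the large subunit, MRPL55 and MRPL52 rose most with GTEA1. MRPL55 was at 11.3, 11.4 and 11.9 CPM in DMSO, at 22.6, 19.9, 22.2 and 22.5 in GTEA1 and at 9.9, 11.4, 10 and 9.72 in GTEA7. Every GTEA1 library was higher than every other library (log2 fold change 0.92 ± 0.08, adjusted p = 1e-14). MRPL52, specific to mitochondria, was at 17.7, 19.4 and 19 CPM in DMSO and at 29.9, 30.3, 32.4 and 29.7 in GTEA1 (0.71 ± 0.06, adjusted p = 5.1e-14), while its GTEA7 libraries, at 17.1 to 19.1, overlapped DMSO. MRPL58, a peptidyl-tRNA hydrolase that is also built into the large subunit, rose from 21.5 ± 1.9 to 28.3 ± 1.5 CPM (0.39 ± 0.07, adjusted p = 1.5e-06). MRPL34 rose from 23.1 ± 0.85 to 28.9 ± 1.9 CPM (adjusted p = 1.2e-05). Its gene body is wholly covered when all other gene models are counted, among them ABHD8 on the opposite strand. MRPS36, of the 2-oxoglutarate dehydrogenase complex, rose from 12.9 ± 0.76 to 17.6 ± 2.4 CPM (0.45 ± 0.09, adjusted p = 4.4e-05).

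MRPL35, MRPL23, MRPL1 and MRPL30 were the large subunit genes that fell most with GTEA1. MRPL35 was at 46.2, 46.2 and 46.6 CPM in DMSO, at 26.5, 24.8, 26.8 and 23.7 in GTEA1 and at 45.8, 44.4, 48.6 and 46.2 in GTEA7. GTEA1 stood apart and the other groups overlapped (-0.87 ± 0.06, adjusted p = 1.6e-19). MRPL23, whose bacterial counterpart lies at the exit of the peptide tunnel, was at 10.8, 11.3 and 11.5 CPM in DMSO, at 7.06, 5.73, 6.55 and 5.78 in GTEA1 and at 12.3 to 14 in GTEA7. Here no groups overlapped, with GTEA1 below and GTEA7 above DMSO (GTEA1 -0.84 ± 0.10, adjusted p = 3.8e-10). MRPL1, of the stalk that releases spent transfer RNA, was at 31.5, 30.7 and 29.2 CPM in DMSO and at 20.6, 16, 15.4 and 18.7 in GTEA1 (-0.79 ± 0.08, adjusted p = 2.2e-12). MRPL30 fell from 53.3 ± 2.7 to 33.6 ± 1.3 CPM (-0.67 ± 0.05, adjusted p = 4.5e-16), MRPL40 from 18.9 ± 1.3 to 12.4 ± 1.2 (adjusted p = 5.2e-09) and MRPL50 from 29.8 ± 0.89 to 21.8 ± 0.32 (adjusted p = 3.9e-09). The body of MRPL30 is wholly covered when all other gene models are counted. Among them is a protein-coding one on its strand, which had 323 counts.

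The genes of the factor-recruiting stalk and its base had different calls with GTEA1, and their changes were not tested against each other. MRPL11, of the stalk base, fell with GTEA1 from 39.8 ± 0.9 to 30.4 ± 2.6 CPM (-0.39 ± 0.06, adjusted p = 5e-08). MRPL10, the anchor of the stalk, went from 71.7 ± 0.74 to 79.5 ± 2.9 CPM (0.15 ± 0.04, adjusted p = 0.0017), but with library size as the only scaling its log2 fold change turned to -0.01. MRPL12, the stalk protein itself, was at 1.72 ± 0.31 CPM in DMSO, 1.44 ± 0.26 in GTEA1 and 1.73 ± 0.24 in GTEA7 and did not pass in either. Its log2 fold change with GTEA1 was -0.26 ± 0.23. With library size only the GTEA1 changes of MRPL11 and MRPL12 were -0.55 and -0.42, that of MRPL12 not passing (adjusted p = 0.089). MRPL41 rose with GTEA1 from 11.8 ± 0.27 to 14.7 ± 1.3 CPM (0.32 ± 0.09, adjusted p = 0.0015) and was at 11.8 ± 1.3 in GTEA7, but with library size only the GTEA1 change of MRPL41 was 0.16 and did not pass (adjusted p = 0.11). MRPL36 and MRPL44, the latter a relative of ribonuclease III, did not pass against DMSO, with log2 fold changes of -0.11 ± 0.09 and -0.08 ± 0.05 for GTEA1 and 0.16 ± 0.08 and 0.05 ± 0.05 for GTEA7. Without DMSO replicate 2, MRPL36 passed as higher with GTEA7 (adjusted p = 0.043). MRPL36 passed as lower with GTEA1 with the correction for GC content and length (-0.22, adjusted p = 0.014) and with library size only (-0.27, adjusted p = 0.005). MRPL44 did so with library size only (-0.24, adjusted p = 0.00013).

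The paralogs of the S18 family had few calls, and their changes were not tested against each other. By their standard names MRPS18A and MRPS18B were classed as specific to mitochondria and MRPS18C as having a bacterial counterpart. MRPS18B was at 32.8 ± 2.3 CPM in DMSO, at 31.5 ± 1.8 in GTEA1 (adjusted p = 0.33) and at 36.6 ± 2.1 in GTEA7 (0.16 ± 0.06, adjusted p = 0.044). With library size only it passed as lower with GTEA1 (-0.23, adjusted p = 0.001). The GTEA7 call of MRPS18B was lost without DMSO replicate 1 or 3 or GTEA7 replicate 2, 3 or 4 (adjusted p from 0.085 to 0.3), with DESeq2's Wald test (0.069) and with library size only (0.2). MRPS18A was at 9.76 ± 0.99, 8.64 ± 0.38 and 9.25 ± 0.97 CPM in DMSO, GTEA1 and GTEA7 and passed in neither, but it passed as lower with GTEA1 without DMSO replicate 1 (-0.26, adjusted p = 0.039), with a correction for GC content and length (-0.30, adjusted p = 0.007) and with library size only (-0.33, adjusted p = 0.0036). MRPS18C was at 4.15 ± 0.38 CPM in DMSO and 5.17 ± 0.51 in GTEA1 (adjusted p = 0.04), a call lost when any 1 of DMSO replicates 1 and 3 and GTEA1 replicates 3 and 4 was left out (adjusted p from 0.07 to 0.15). The call of MRPS18C was also lost with DESeq2's Wald test (adjusted p = 0.087), with no low-count filter (0.062) and with library size only (0.16 on the log2 scale, adjusted p = 0.32). MRPS2, MRPS12, of the decoding centre, and MRPS28 did not pass with either extract. Their log2 fold changes were 0.13 ± 0.08, 0.05 ± 0.14 and -0.01 ± 0.22 with GTEA1 and -0.01 ± 0.07, 0.20 ± 0.13 and 0.20 ± 0.21 with GTEA7.

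The changes with GTEA7 were smaller (SD of the log2 fold changes 0.19), and 24 of the 26 that passed were rises. Of the 76 genes 24 rose (31.6%, against 12% of all genes tested), 2 fell (2.63%, against 10.4%) and 50 did not pass, where 22.5% of all genes passed. The median log2 fold change of the members was 0.11, with quartiles at 0.04 and 0.18, against -0.009 for all genes, and 60 of 76 were above 0. Every GTEA7 library was above every DMSO library in 23 members (15.6% of all genes) and below in 2 (14.9%). No member changed by 2-fold, as did 0.295% of all genes upwards and 0.284% downwards. With library size as the only scaling 13 rose and 3 fell, where 6.99% of all genes rose and 16.4% fell, and the members' median was 0.06 with that of all genes at -0.06. Without DMSO replicate 1 the number that rose was 14. The changes of GTEA7 and GTEA1 are measured against the same DMSO libraries, so an agreement between them is not independent.

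**Figure D3:**
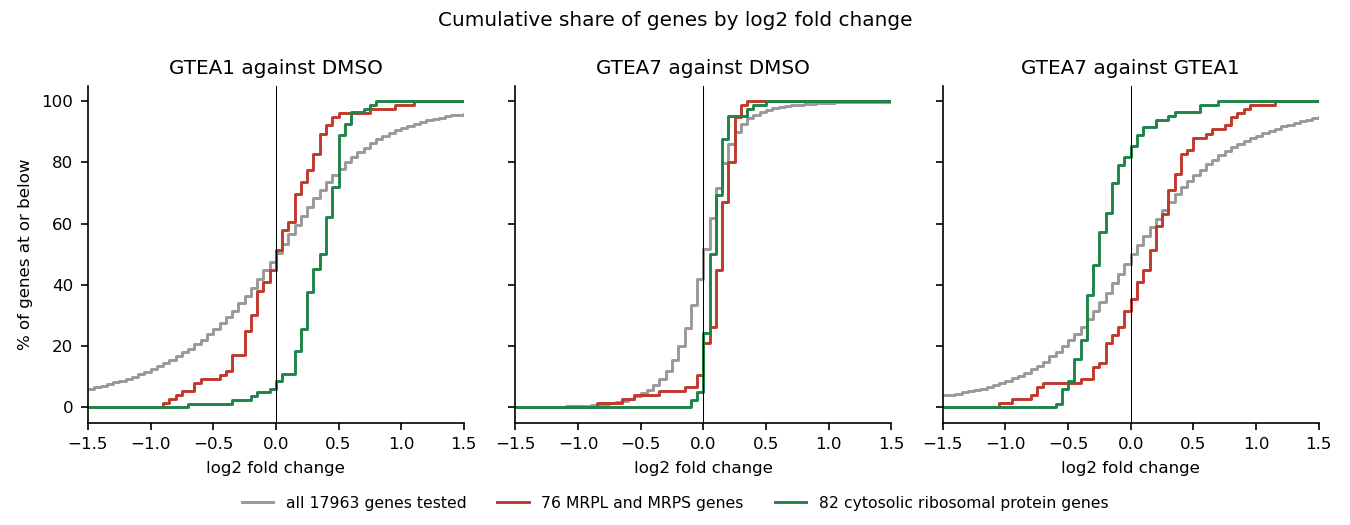
Cumulative share (y axis, percent) of genes at or below each log2 fold change (x axis) in the 3 comparisons, for all 17963 genes tested, 76 MRPL and MRPS genes and 82 cytosolic ribosomal protein genes. With GTEA1 the members straddle 0 (median -0.02) and the cytosolic genes lie above it (0.35); with GTEA7 the members lie slightly above 0 (0.11).

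MRPL3 showed the largest rise with GTEA7, at 115, 114 and 109 CPM in DMSO, 126, 119, 122 and 120 in GTEA1 and 139, 143, 141 and 135 in GTEA7. No groups overlapped, and GTEA7 was highest (0.31 ± 0.04, adjusted p = 7.2e-09). The smaller difference of MRPL3 with GTEA1 (0.11 ± 0.04, adjusted p = 0.0077) turned to the other side of 0 with library size as the only scaling. MRPS10 rose by 0.28 ± 0.04 on the log2 scale with GTEA7 (adjusted p = 2.5e-06), MRPL15 by 0.25 ± 0.05 (adjusted p = 0.00028), MRPS35 by 0.23 ± 0.04 (adjusted p = 7.1e-05), MRPS15 by 0.23 ± 0.05 (adjusted p = 0.0011) and MRPL13 by 0.22 ± 0.05 (adjusted p = 0.00059). The rise of MRPL23, 0.27 ± 0.09 (adjusted p = 0.02), lost its call without DMSO replicate 1 or 2 or GTEA7 replicate 1 or 2, at adjusted p from 0.051 to 0.083, and with library size only (adjusted p = 0.065). That of MRPS9, 0.22 ± 0.06 (adjusted p = 0.008), was lost without DMSO replicate 1 (adjusted p = 0.051) and with the correction for GC content and length (0.15, adjusted p = 0.086).

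Further rises with GTEA7 included MRPL42, MRPS27 and MRPS23. MRPL42, the most abundant member in CPM, was at 145, 143 and 141 CPM in DMSO and at 167, 165, 168 and 161 in GTEA7 (0.21 ± 0.04, adjusted p = 2.1e-05). MRPS27, a pentatricopeptide repeat protein of the small subunit, was at 124, 122 and 118 CPM in DMSO, 107, 107, 113 and 106 in GTEA1 and 141, 138, 147 and 136 in GTEA7. Its GTEA1 libraries lay below and its GTEA7 libraries above all DMSO libraries (-0.17 ± 0.04, adjusted p = 0.00018, and 0.21 ± 0.04, adjusted p = 3.1e-05). MRPS23 rose with GTEA7 from 77.5 ± 1.3 to 87.6 ± 3.3 CPM (adjusted p = 0.0011). By class, 5 of 10 small subunit genes specific to mitochondria rose and 0 fell, and 4 of 15 small subunit genes with a bacterial counterpart rose and 0 fell. In the large subunit 11 of 29 with a bacterial counterpart rose and MRPL2 fell, and 4 of 20 specific to mitochondria rose and MRPL46 fell. Of all genes tested, 12% were higher and 10.4% lower with GTEA7. The counts by class are descriptions, and no difference between the classes was tested.

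The 2 genes that fell with GTEA7 were MRPL2 and MRPL46, both with few counts and both under other gene models. MRPL46 was at 2.11, 2.43 and 2.48 CPM in DMSO, 2.99, 2.5, 2.42 and 3.53 in GTEA1 and 1.61, 1.28, 1.77 and 1.18 in GTEA7. GTEA7 lay below both other groups (-0.67 ± 0.20, adjusted p = 0.012), and without DMSO replicate 2 the adjusted p was 0.052. MRPL2, whose bacterial counterpart lies at the core of the peptidyl transferase region, was at 0.94, 1.35 and 1.45 CPM in DMSO and 0.749, 0.665, 0.472 and 0.788 in GTEA7 (-0.89 ± 0.30, adjusted p = 0.025). Leaving out 1 library at a time gave 0 to 2 genes that fell: 0 without DMSO replicate 2 and 1 without GTEA7 replicate 2 or 3. Among the 56 members with under 50% of the gene body covered by other gene models, 0 fell and 20 (35.7%) rose with GTEA7. Of all genes tested, 10.4% fell and 12% rose. This split was added after the data were seen.

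**Figure D4:**
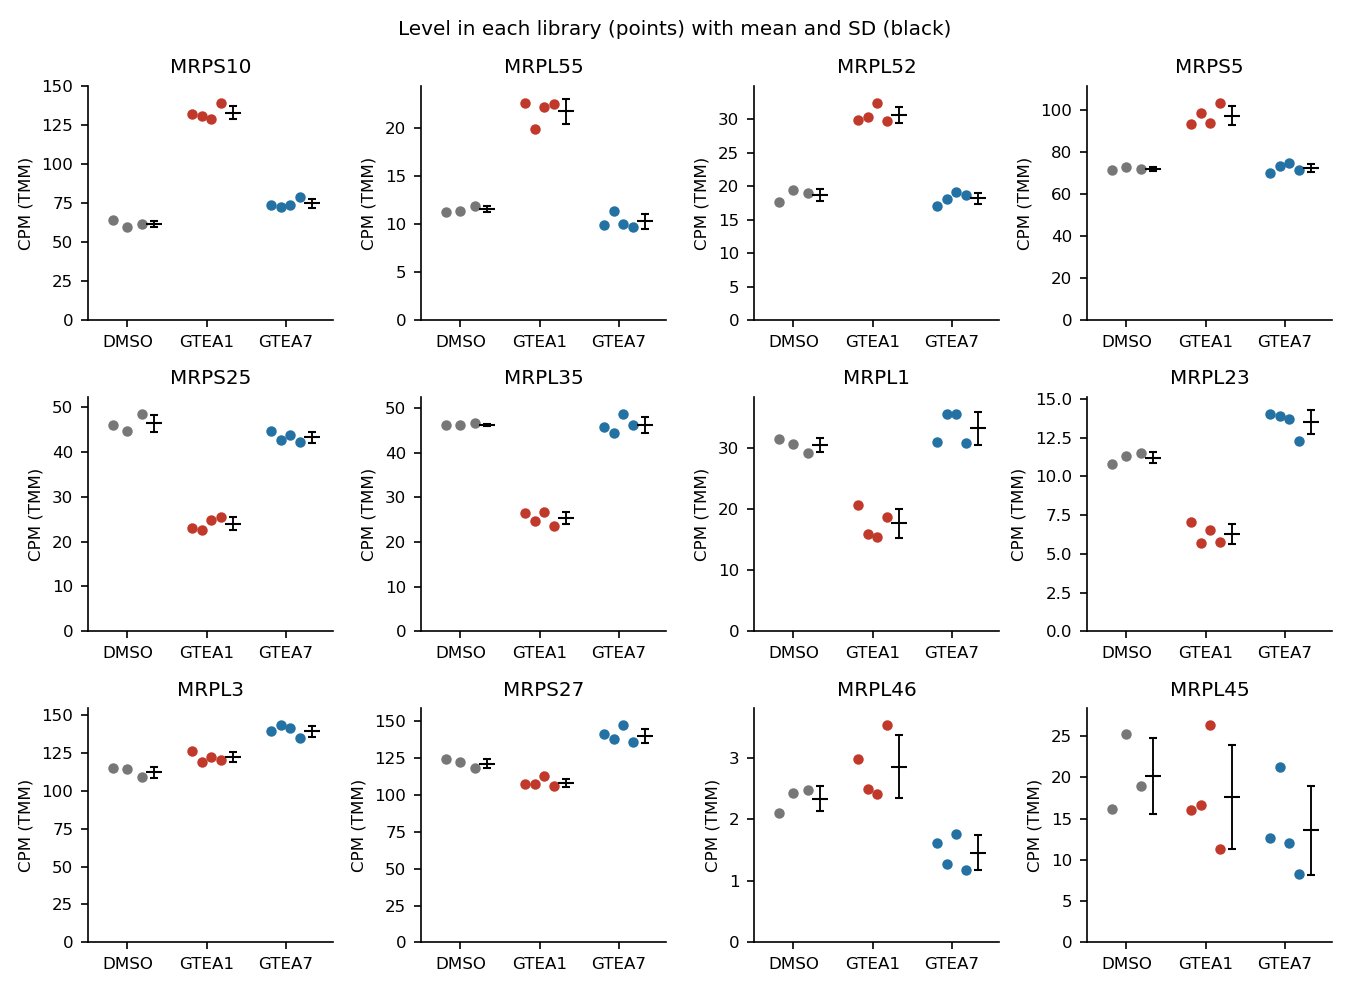
CPM (y axis, from 0) in each library (points, 3 DMSO, 4 GTEA1, 4 GTEA7) with the group mean and SD in black, for 12 members. MRPS10 and MRPL55 are high in GTEA1, MRPS25 and MRPL35 are low there, MRPL23 and MRPS27 are low in GTEA1 and high in GTEA7, and MRPL45 varies widely inside every group.

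Set against GTEA1 directly, GTEA7 had higher levels of 38 members (36.2% of all genes were higher), lower levels of 16 (36.4%) and 22 that did not pass, where 72.7% of all genes passed. The median log2 difference, GTEA7 minus GTEA1, was 0.14, with all genes at 0. With library size only, 45 were higher and 11 lower, and the medians were 0.25 and 0.109. MRPL23 was the 1 member higher by 2-fold or more (11.2% of all genes), with a log2 difference of 1.11 ± 0.09 (adjusted p = 2.7e-15), and MRPL55 the 1 member lower by as much (8.62%), at -1.08 ± 0.07 (adjusted p = 1.9e-18). In 33 members every GTEA7 library lay above every GTEA1 library (32.8% of all genes), among them MRPL1 (0.92 ± 0.07), MRPL35 (0.86 ± 0.05), MRPS25 (0.84 ± 0.05), MRPS17 (0.77 ± 0.13) and MRPL30 (0.76 ± 0.05). In 12 every one lay below (32.5% of all genes), among them MRPL46 (-0.97 ± 0.19), MRPS10 (-0.82 ± 0.04), MRPL38 (-0.77 ± 0.17), MRPL52 (-0.75 ± 0.06) and MRPS5 (-0.43 ± 0.04). Of the 10 small subunit genes classed as specific to mitochondria, 8 were higher and 0 lower in GTEA7 than in GTEA1. MRPS26 (-0.03 ± 0.06) and MRPS35 (0.04 ± 0.04) did not pass. The 8 include MRPS18B, which the standard name places in this class although it belongs to the S18 family. The other classes went both ways, with 6 higher and 3 lower of 15 small subunit genes with a bacterial counterpart, 15 and 5 of 29 such genes of the large subunit, and 9 and 6 of 20 large subunit genes specific to mitochondria. The classes were not tested against each other.

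Side by side, 9 members passed as higher with both extracts: MRPL24, MRPS16, MRPL19, MRPL33, MRPS35, MRPL3, MRPS15, MRPL15 and MRPS10 (11.8%, against 7.12% of all genes tested). A further 8 (10.5%, against 2.89%) were lower with GTEA1 and higher with GTEA7, namely MRPL16, MRPL18, MRPL49, MRPL13, MRPS27, MRPL50, MRPL23 and MRPS30. With library size only, 3 genes (MRPS10, MRPS15 and MRPS16) were higher with both and 4 (MRPL13, MRPL42, MRPS23 and MRPS27) were lower with GTEA1 and higher with GTEA7. MRPL13 averaged 51 ± 1.9 CPM in the control libraries, 39.5 ± 2.2 under GTEA1 (-0.37 ± 0.05) and 59.5 ± 3.3 under GTEA7, with no overlap between groups. MRPS30, linked in name to programmed cell death, went from 90.5 ± 2.6 to 74.2 ± 3.1 CPM (-0.29 ± 0.04, adjusted p = 3.3e-08) and 97.7 ± 2.1 (0.11 ± 0.04, adjusted p = 0.04). The GTEA7 call of MRPS30 was lost without DMSO replicate 2 or 3 or GTEA7 replicate 1, 2 or 3 (adjusted p from 0.055 to 0.18), with the correction for GC content and length (0.38) and with library size only (0.32). None passed as lower with both (6.36% of all genes). With GTEA1 alone past the threshold 15 were higher and 18 lower (19.7% and 23.7%, against 26.2% and 27% of all genes). With GTEA7 alone past it 7 were higher and 2 lower (9.21% and 2.63%, against 2.01% and 1.81%), and 17 passed with neither (22.4%, against 24.4%). These shares are descriptions, since both comparisons use the same DMSO libraries. Which extract a gene passed in is not by itself a difference between extracts, which the direct comparison above tests.

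The summed level of the 78 genes was 2603, 2677 and 2597 CPM in DMSO, 2730, 2617, 2698 and 2615 in GTEA1 and 2824, 2934, 2930 and 2782 in GTEA7. GTEA7 libraries lay above all others, and those of GTEA1 overlapped DMSO. The means were 2626 ± 45, 2665 ± 58 and 2868 ± 76 CPM. With library size only they were 2768 ± 72, 2516 ± 55 and 2919 ± 65, so that every GTEA1 library then lay below every DMSO library (2473 to 2594 against 2719 to 2851) and those of GTEA7 overlapped DMSO. The large subunit summed to 1684 ± 35, 1652 ± 45 and 1830 ± 56 CPM and the small subunit to 929 ± 12, 995 ± 13 and 1022 ± 23. In the small subunit GTEA1 thus lay above DMSO under TMM, but below it, at 940 ± 14 against 979 ± 20, with library size only. The higher sum under TMM was not a rise across the subunit. MRPS10 alone went from a mean of 61.9 CPM in DMSO to 133 in GTEA1, more than the whole sum gained. Of the 25 small subunit genes tested, 6 passed as higher with GTEA1 and 9 as lower, and the middle log2 value was -0.03.

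**Figure D5:**
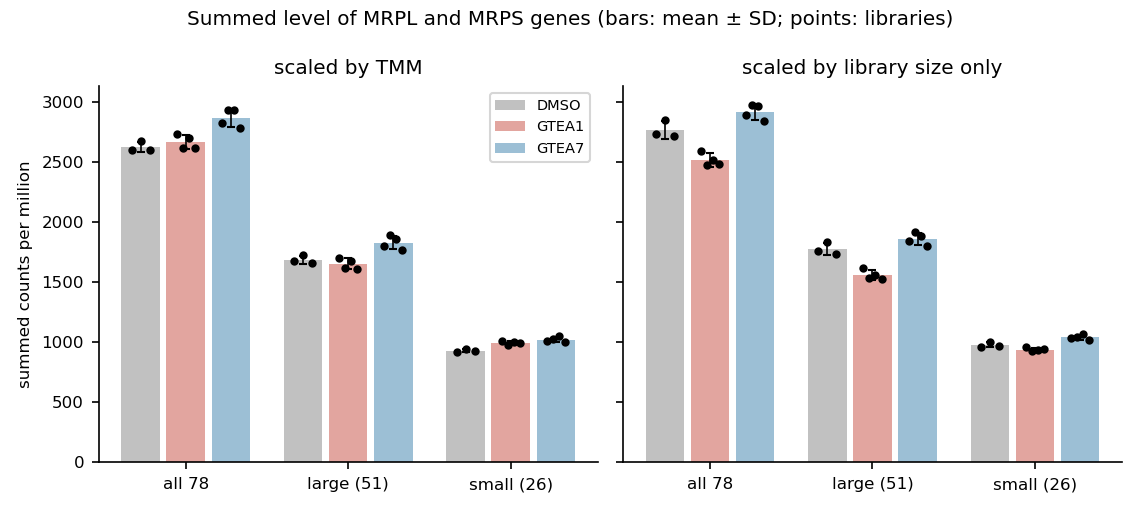
Summed CPM (y axis, from 0) of all 78 genes and of the large and small subunit, scaled by TMM (left) and by library size only (right); bars are group means with SD and points are libraries. GTEA7 has the highest mean in each set under both scalings, whereas the place of GTEA1 against DMSO depends on the scaling.

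MRPL45, which tethers the ribosome to the inner membrane, varied inside every group. It was at 16.2, 25.2 and 19 CPM in DMSO, 16.1, 16.7, 26.3 and 11.3 in GTEA1 and 12.7, 21.2, 12.1 and 8.28 in GTEA7. The coefficient of variation between replicates was 22.8%, 35.8% and 39.7%, where counting error alone would give 5.43%, 6.28% and 6.44%. Among members of at least 10 CPM the median coefficient was 4.12%, 5.14% and 5.32%, and the next highest after MRPL45 was 12.2% (MRPL27), 13.6% (MRPL1) and 11.4% (MRPL33). MRPL45 passed in no comparison (GTEA1 -0.20 ± 0.35, GTEA7 -0.55 ± 0.36). No other gene model of GENCODE v29 overlaps it and its 1 listed pseudogene had 0 counts, but the cause of its spread was not tested.

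Genes that work with the ribosome rose and fell with GTEA1 and had more rises than falls with GTEA7. Their counts below stand beside 35.6% of all genes higher and 36.2% lower with GTEA1, and 12% and 10.4% with GTEA7. Of 5 further ribosomal proteins with other names, DAP3, the GTP-binding protein of the small subunit, was at 139, 139 and 144 CPM in DMSO, 175, 168, 170 and 174 in GTEA1 and 157, 163, 158 and 154 in GTEA7. Both extracts lay above DMSO (0.29 ± 0.04, adjusted p = 8.4e-10, and 0.17 ± 0.04, adjusted p = 3e-04). PTCD3, which helps the small subunit take up messenger RNA, fell with GTEA1 (-0.19 ± 0.04, adjusted p = 1.1e-05). CHCHD1 fell as well (-0.22 ± 0.08, adjusted p = 0.016). Its adjusted p became 0.075 when DMSO replicate 2 was left out and 0.059 when GTEA1 replicate 3 was. AURKAIP1 and GADD45GIP1 did not pass, at -0.10 and 0.00 with GTEA1 and 0.03 and -0.10 with GTEA7. AURKAIP1 passed as lower with GTEA1 with library size only (-0.26, adjusted p = 0.0011). It also did so with the correction for GC content and length (-0.18, adjusted p = 0.015).

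The ribosomal RNAs of mitochondrial DNA, as captured in poly-T selected RNA, moved apart with GTEA1. MT-RNR2, of the large subunit, was at 22400 ± 1400 CPM in DMSO, 36300 ± 1400 in GTEA1 (0.70 ± 0.04, adjusted p = 4.2e-20) and 27800 ± 410 in GTEA7 (0.31 ± 0.04, adjusted p = 1.5e-07). MT-RNR1, of the small subunit, was at 3860 ± 370, 2560 ± 170 (-0.59 ± 0.08, adjusted p = 7.1e-05) and 3680 ± 270 CPM (-0.07 ± 0.08, adjusted p = 0.6). Of 29 tested genes for ribosome assembly and rRNA modification 8 rose and 8 fell with GTEA1, and 6 rose and 0 fell with GTEA7. NSUN4, a methyltransferase of the small subunit RNA, rose with both (0.58 ± 0.05, adjusted p = 2.3e-13, and 0.24 ± 0.06, adjusted p = 0.00079). RPUSD4, a pseudouridine synthase of the large subunit RNA, fell with GTEA1 (-0.42 ± 0.06, adjusted p = 4.7e-09), and FASTKD2, an RNA-binding protein of mitochondria, rose with GTEA7 (0.24 ± 0.05, adjusted p = 0.00028).

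Of 18 translation factors and cofactors 7 rose and 6 fell with GTEA1 and 7 rose and 0 fell with GTEA7. The initiation factors MTIF3 (0.90 ± 0.07, adjusted p = 3.6e-16) and MTIF2 (0.45 ± 0.04, adjusted p = 6.9e-13) and the recycling factor GFM2 (0.83 ± 0.05, adjusted p = 1.5e-19) rose with GTEA1. The lowest log2 fold change of the 18 with GTEA1 was that of TSFM, at -0.98. LRPPRC, which stabilises mitochondrial messenger RNA, fell with GTEA1 from 473 ± 1.3 to 375 ± 11 CPM (adjusted p = 9.4e-13) and rose to 534 ± 9.5 with GTEA7 (adjusted p = 6e-05). Of 18 genes for charging transfer RNA in mitochondria 4 rose and 8 fell with GTEA1, with the arginine enzyme RARS2 up (0.86 ± 0.04, adjusted p = 3.7e-23) and the cysteine enzyme CARS2 (-0.72 ± 0.06, adjusted p = 4.1e-16) down, and 2 rose with GTEA7 (11.1%, near the share of all genes).

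Transcription and biogenesis genes (17 tested) gave 4 rises and 7 falls with GTEA1 and 4 rises and 0 falls with GTEA7. TFAM, which packages and transcribes mitochondrial DNA, fell from 80.9 ± 2.2 to 46.3 ± 3.3 CPM with GTEA1 (-0.81 ± 0.05, adjusted p = 7.8e-21), while POLRMT, the mitochondrial RNA polymerase, rose from 60.1 ± 0.92 to 91.5 ± 2.5 (0.60 ± 0.05, adjusted p = 1.1e-16). MYC rose with GTEA7 from 154 ± 1.1 to 197 ± 2.6 CPM (0.36 ± 0.03, adjusted p = 1.1e-11). Of 12 quality control genes 8 rose and 2 fell with GTEA1. Those that rose included the chaperone HSPA9 (0.95 ± 0.03, adjusted p = 1.3e-29), the protease LONP1 (0.96 ± 0.04, adjusted p = 4.3e-27) and the stress transcription factor ATF5 (1.54 ± 0.11, adjusted p = 1.8e-18). HSPD1, the mitochondrial chaperonin, fell with GTEA1 (-0.38 ± 0.04, adjusted p = 8.6e-14) and rose with GTEA7 (0.26 ± 0.04, adjusted p = 8.3e-08), where 6 of the 12 rose and 0 fell.

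Genes for the proteins of the cytosolic ribosome mostly rose with GTEA1. Of the 82 that were tested, 68 were higher and 3 lower (median 0.35 on the log2 scale), against 24 and 26 of the 76 mitochondrial ones at -0.02. With GTEA7 the cytosolic counts were 20 and 0 with a median of 0.06. Nuclear genes for the respiratory chain (79 tested), whose partner subunits the mitochondrial ribosome makes, were divided. With GTEA1 21 of them rose (26.6%) and 26 fell (32.9%), with a median of -0.01. With GTEA7 18 rose (22.8%) and 1 fell (1.27%), with a median of 0.08. Of all genes tested, 35.6% rose and 36.2% fell with GTEA1, and 12% rose and 10.4% fell with GTEA7. The respiratory chain shares with GTEA1 were thus below those of all genes. No test of these lists against each other was made, and the counts and medians are descriptions of these libraries.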

How the data were processed

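Polyadenylated RNA of 11 HCT116 libraries was sequenced. The authors deposited raw read counts per gene, 1 column per library. Tools listed in the submitters' processing notes, with no role stated, are HTSeq 0.5.4, STAR, DESeq 1.10.1, SAMtools 0.1.18, GATK and Picard. The sources used here give no build, annotation or strand setting for the counts, and none of their coordinates are printed. Groups came from the labels.

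Symbols were matched by Ensembl ID, and gene type, length, GC content and overlap from GENCODE v29. Genes were filtered with filterByExpr, which left 17963, and edgeR 4.0.16 (R 4.3.3; TMM, robust quasi-likelihood) fitted every library in 1 model. Each standard error is the size of the fold change over the root of its F statistic. The method was also run on counts simulated from the fitted model, whose outcome is not given and which did not test the choice of scaling. Promoters came from RefSeq (GRCh38.p14), 69 of the 78 members having an entry, and the first entry per symbol was used.

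The members and lists were chosen with earlier results of these data known. Named members are the 8 largest rises and falls per extract (6 for GTEA7 against GTEA1) among those that passed with a mean of at least 1 CPM and groups not overlapping. Added to these are set genes of interest and up to 4 genes per list with the smallest adjusted p. Other members, such as MRPL42, MRPS27 and MRPS23, were named after their values were seen. Alternatives were DESeq2 size factors, library size only, no low-count filter, a stricter one (1 CPM in 3 libraries), a replicate block, only the compared groups, limma-voom 3.58.1, DESeq2 1.42.0 (Wald), a GC and length correction and leaving out each library. Counting members with under 50% overlap was added after seeing the data.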

Additional observations from a re-analysis of the deposited data

Results flagged for a closer look

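In groups of 4 libraries, the gap between the outermost library and its neighbour was compared with the group's range by Dixon's 95% critical value. Of 90 groups of 4 values checked, 9 had such a library, where chance gives about 1 in 20. In GTEA1, replicate 1 was high for MRPS2 (20.3 CPM, the others 17.8 to 18.1), MRPS35 (75.2, the others 67.4 to 68.7) and MRPS28 (2.61, the others 1.76 to 1.9, a gene with few counts). GTEA1 replicate 2 was high for MRPL36 (14.1 CPM, the others 12.7 to 12.8) and low for MRPL55 (19.9, the others 22.2 to 22.6), which still lay above every DMSO library. In GTEA7, replicate 1 was low for MRPS18B (33.6 CPM, the others 37.3 to 37.9) and MRPS2 (15.3, the others 17.1 to 17.3). GTEA7 replicate 2 was high for MRPL55 (11.4 CPM, the others 9.72 to 10) and GADD45GIP1 (15.2, the others 11.3 to 11.9).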

How the results depend on the processing

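Library size as the only scaling moved most: 11 members rose with GTEA1 (median -0.17) and 13 with GTEA7, the median of GTEA7 against GTEA1 was 0.25, the summed level was 2768 CPM in DMSO and 2516 in GTEA1, and MRPL10 turned to -0.01 with GTEA1. Correction for GC content and length gave a median of -0.06 for GTEA1. The 2 falls with GTEA7 were 1 by DESeq2's Wald test and 0 among members with under 50% overlap. Leaving out each library gave 21 to 26 rises, 24 to 26 falls and a median of -0.04 to 0.01 for GTEA1. For GTEA7 it gave 14 (without DMSO replicate 1) to 23 rises, 0 to 2 falls and a median of 0.09 to 0.14. For GTEA7 against GTEA1 it gave 34 to 39, 14 to 16 and 0.12 to 0.17. With the replicate number as a block, 24 members rose and 26 fell with GTEA1, and 27 rose and 2 fell with GTEA7, and the adjusted p of MRPS18C with GTEA1 was 0.096. The labels do not say that the numbers mark pairs, and they were not taken as such. Over all tested genes, each weighing the same, same-numbered libraries did not deviate together (r from -0.05 to 0.03). Genes with few counts weigh fully in that r, so it does not settle the question. Under 9 alternatives and with each of the 7 libraries compared left out in turn, 11 of 24 rises and 23 of 26 falls with GTEA1 kept their call, as did 11 of 24 rises and 0 of 2 falls with GTEA7. The 10 genes with the fewest counts had 951 reads or fewer in all.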
